A study of Drosophila melanogaster with 8 samples.

Results

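The genes described here encode the proteins of the mitochondrial ribosome of Drosophila melanogaster. They were taken as all probe sets whose gene symbol in the array platform's annotation starts with mRpL (large subunit) or mRpS (small subunit), with each gene represented by its probe set of highest mean over the 8 arrays. This gave 64 of the 10844 genes measured by a probe set with a single gene, 43 of the large and 21 of the small subunit. RefSeq lists 73 genes with such a symbol, and the other 9 (mRpL27, mRpL34, mRpL37, mRpL53, mRpS5, mRpS10, mRpS14, mRpS21 and mRpS23) are not analysed here.

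Mitochondria keep a ribosome of their own in the matrix, which translates the few messages of mitochondrial DNA, most of them for subunits of the respiratory chain. All of its proteins are encoded in the nucleus, made in the cytoplasm and imported, so that their genes have to be expressed alongside a ribosomal RNA that is transcribed inside the organelle. Some of these proteins descend from those of bacterial ribosomes, and others were acquired by mitochondria. The small subunit decodes the message, and the large subunit forms the peptide bond and holds the exit tunnel.

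RNA of 3 fly cell lines had been hybridised to Affymetrix DrosGenome1 arrays, which carry several short probes per transcript in a probe set. The RasV12 line, the product of a study that made continuous lines from embryos by expressing oncogenic Ras, was at passage 12 and has 3 arrays. CL8, with 4 arrays, and L2, with 1 array, are cell lines for which the labels give neither a treatment nor a passage. Every array came from a separate T-flask grown to 70% confluence, so the p-values measure the spread between flasks of a line and not between independently derived lines. RasV12 is 1 line, and the labels name neither a promoter for the transgene nor a parental line without it.

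The values are log2 expression values computed by the authors with GCRMA, and a difference of 1 is a 2-fold difference. The arrays did not share one distribution. The upper quartile of all probe sets was 8.09 to 8.17 on the RasV12 arrays, 8.96 to 8.99 on the CL8 arrays and 8.32 on the L2 array. The RasV12 values were also deposited with more decimals (median 14) than those of the other lines (median 9), so a separate processing run and the line cannot be told apart. For this reason counts, medians and the differences of members described singly are also given after quantile normalization, called rescaled below, and a gene is said to be lower or higher in both scalings where it passed in each. All 64 genes lay above the highest background control on each of the 8 arrays. The mesoderm markers twi and htl were both above the controls in RasV12 and L2 while twi lay within them in CL8, with summed log2 levels of 20.3 to 21 in RasV12, 7.62 to 8.66 in CL8 and 17.4 in L2. The hemocyte markers Hml, eater and Pxn were 3 of 3 above the controls in each line, with sums of 13.9 to 15.5 in RasV12, 25.2 to 27.4 in CL8 and 24.1 in L2, and the wing disc markers vg, ap and nub were likewise 3 of 3, with sums of 12.2 to 14.1, 11.6 to 13.2 and 15.9. The part of cell type in the results below was not tested.

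The mitochondrial ribosomal protein genes were lower in RasV12 than in CL8 in both subunits. In the deposited values 64 of 64 passed as lower (limma over all 8 arrays, Benjamini-Hochberg adjusted p under 0.05), against 38.6% of all tested probe sets and 54.5% of the 7856 genes that lay above the controls in at least 1 line. No member was higher, where 11.3% of all probe sets were. After rescaling 56 of 64 were still lower and 0 were higher (58 and 0 at an unadjusted p under 0.05), where 29.8% of all probe sets were lower and 35.5% higher. Lower in both scalings were thus 87.5% of the members, against 25.6% of all probe sets and 34.9% of the genes above the controls. The median log2 difference of the members was -1.83 (3.55-fold lower), and -1.0 after rescaling, where the genes above the controls had medians of -0.56 and -0.04. No member's 3 RasV12 arrays overlapped its 4 CL8 arrays, and the RasV12 arrays lay below without overlap for 38.9% of all probe sets. The arrays measure RNA of whole cultures, in which less of a message per cell and fewer cells that express it cannot be told apart.

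**Figure D1:**
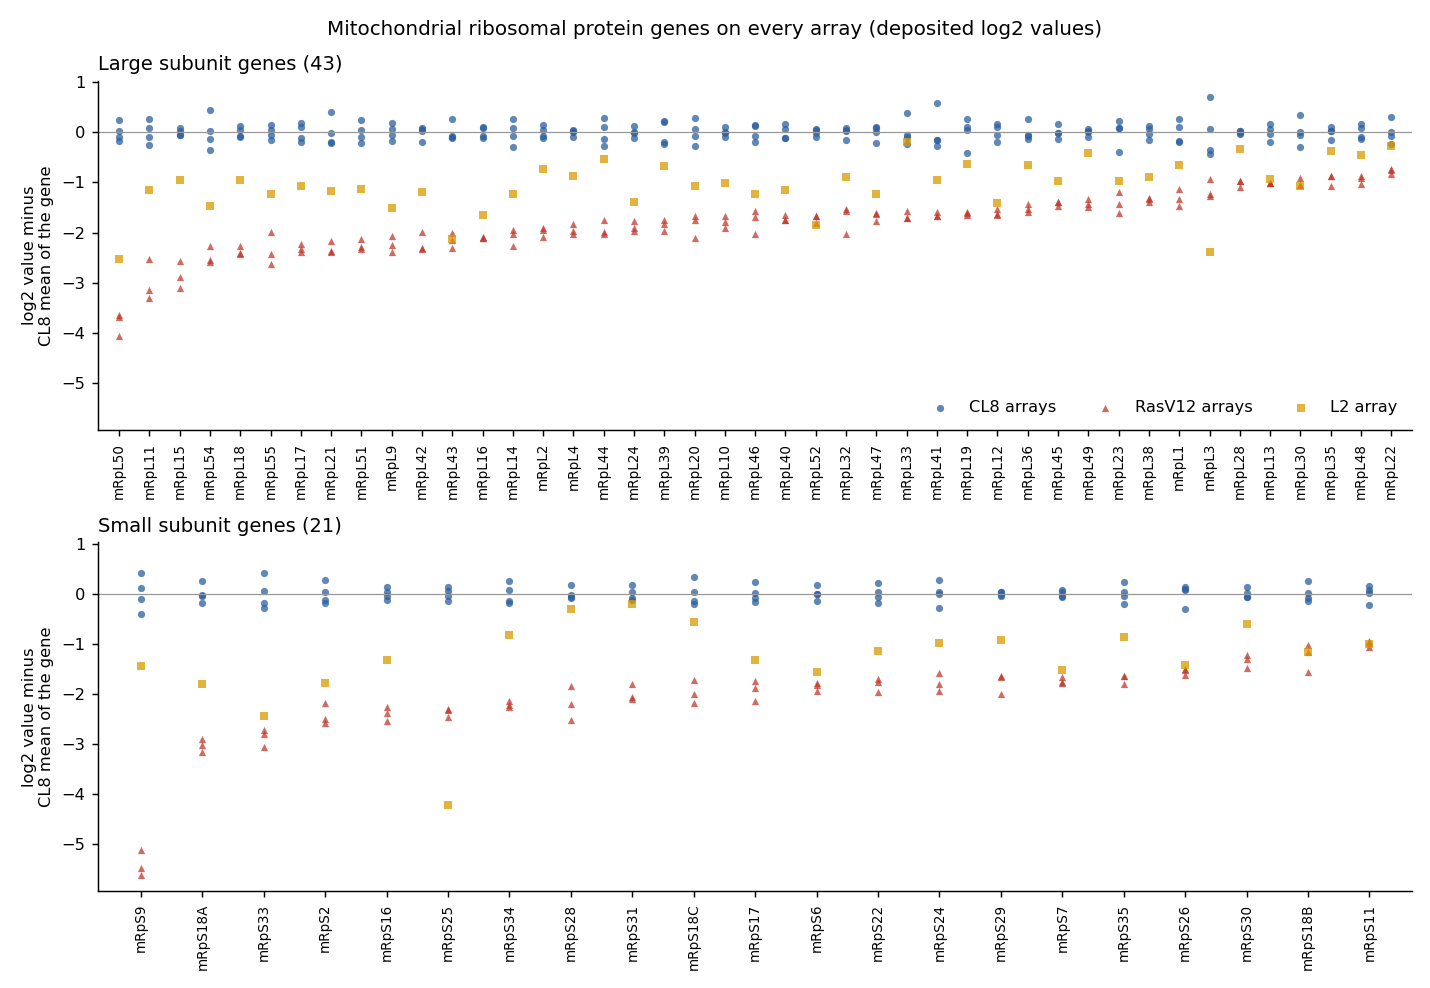
Deposited log2 value of each mitochondrial ribosomal protein gene on each of the 8 arrays, minus the gene's mean over the 4 CL8 arrays (vertical axis), with the 43 large and 21 small subunit genes ordered by their RasV12 against CL8 difference along the horizontal axes. Circles are CL8, triangles RasV12 and squares L2 arrays; the RasV12 points lie below the CL8 points for all 64 genes, farthest for mRpS9, and the L2 square lies between them for 56 genes.

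The members farthest from the others in this comparison were mRpS9 and mRpL50, both more than 1.5 interquartile ranges outside the quartiles of the members. mRpS9 is named after a bacterial protein whose tail reaches the transfer RNA in the P site. Its log2 levels were 5.07, 5.43 and 4.92 on the RasV12 arrays, 10.66, 10.95, 10.43 and 10.13 on the CL8 arrays and 9.09 on the L2 array. The RasV12 cultures thus stood far below both other lines. The log2 difference from CL8 was -5.40 ± 0.20 (SE, adjusted p = 4.42e-07), which is 42.2-fold lower, and -4.83 after rescaling. mRpL50, a protein of the large subunit without a bacterial counterpart, had log2 levels of 7.70, 8.12 and 8.08 in RasV12, 11.66, 11.58, 11.79 and 12.00 in CL8 and 9.23 in L2. All RasV12 arrays and the L2 array lay below the CL8 arrays, RasV12 the lower. Its difference between RasV12 and CL8 was -3.79 ± 0.14 (13.9-fold lower, adjusted p = 4.12e-07), and -2.99 after rescaling.

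Behind these genes came mRpS18A and mRpL11. mRpS18A is 1 of the 3 fly genes measured here that are named after bacterial S18. Its log2 levels were 7.16, 7.02 and 7.28 in RasV12 and 10.15, 10.43, 10.13 and 9.99 in CL8, a difference of -3.02 ± 0.12 (adjusted p = 5.90e-07). For mRpS18C the difference was -1.97 (adjusted p = 1.79e-05) and for mRpS18B -1.25 (adjusted p = 0.000175). After rescaling these were -2.24, -1.15 and -0.44, the last no longer passing (adjusted p = 0.0577). mRpL11, whose bacterial counterpart forms the base of the stalk where elongation factors bind, had log2 levels of 6.59, 5.97 and 5.80 in RasV12 and 8.86, 9.39, 9.19 and 9.02 in CL8. The groups were apart by -2.99 ± 0.20 (adjusted p = 7.34e-06), and by -2.28 after rescaling.

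The smallest difference belonged to mRpL22, which in bacteria lines the exit tunnel. Its log2 levels were 7.82, 7.73 and 7.81 in RasV12, 8.48, 8.33, 8.86 and 8.55 in CL8 and 8.29 in L2. RasV12 lay below CL8 without overlap in the deposited values, by -0.77 ± 0.13 (adjusted p = 0.00102). After rescaling the sign turned, to 0.041 (adjusted p = 0.759), so that no direction holds for this gene. The other members that passed as lower in the deposited values but not after rescaling were mRpL3, mRpL13, mRpL30, mRpL35, mRpL48, mRpS11 and mRpS18B. For mRpS11, named after a bacterial protein of the small subunit's platform and the brightest member of that subunit, the difference was -0.99 (adjusted p = 7.09e-05), and -0.22 after rescaling (adjusted p = 0.133). For mRpL35 and mRpL48 it was -0.94 each (adjusted p = 6.74e-05 and 8.36e-05), and -0.17 and -0.11 after rescaling (adjusted p = 0.0706 and 0.244).

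The members nearest the middle of their subunit show the usual size of the difference. For the large subunit these were mRpL10, named after the bacterial protein that anchors the stalk, at -1.79 ± 0.09 (adjusted p = 1.59e-06), and mRpL46, at -1.76 ± 0.14 (adjusted p = 1.44e-05). mRpL10 read 8.0, 8.24 and 8.12 in RasV12 and 9.92, 10.01, 9.91 and 9.81 in CL8. For the small subunit they were mRpS17 at -1.92 ± 0.13 (adjusted p = 6.83e-06) and the mRpS18C described above. These 4 genes also passed as lower after rescaling, with differences between -1.15 and -0.95. mRpL36, the brightest member of the large subunit, differed by -1.51 (adjusted p = 1.07e-05) and by -0.74 after rescaling.

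The differences of the large and the small subunit overlapped. In RasV12 against CL8 the median log2 difference was -1.76 over the 43 large subunit members and -1.92 over the 21 small subunit members, and -0.96 and -1.09 after rescaling. Lower in both scalings were 37 of 43 (86.0%) and 19 of 21 (90.5%). On single arrays, each gene taken relative to its CL8 mean, the large subunit's median lay above that of the small subunit by 0.20, 0.28 and 0.03 in RasV12 (0.17 ± 0.13, SD, n = 3), by -0.09, -0.05, 0.04 and 0.09 in CL8, and by 0.16 in L2. One of the 3 RasV12 values thus lay within the range of the CL8 arrays. Among themselves the members' differences had an SD of 0.60 over the large and 0.90 over the small subunit, which holds mRpS9 at -5.40. Their interquartile ranges had the opposite order, 0.76 over the large and 0.62 over the small subunit.

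**Figure D2:**
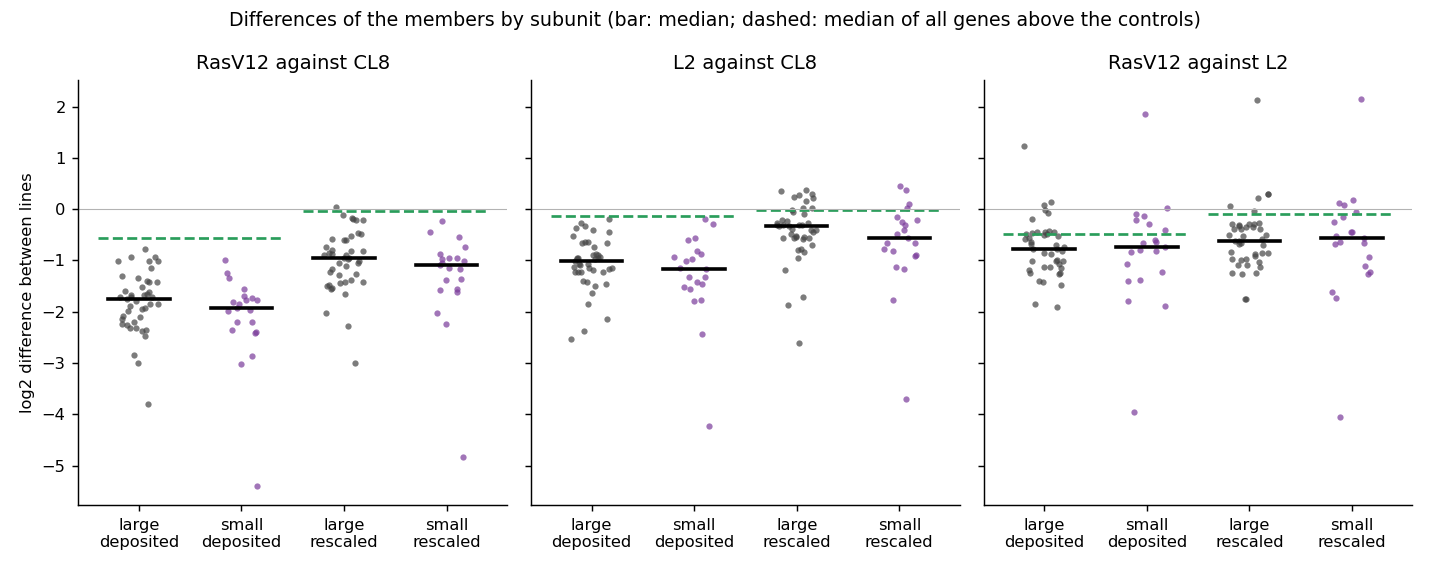
Log2 differences of the 43 large and 21 small subunit members (vertical axis) in each of the 3 comparisons, in deposited and in rescaled values, with 1 point per gene, the subunit's median as a black bar and the median of all genes above the controls as a dashed line. The medians of the subunits lie within 0.24 of each other in each comparison and scaling, and single genes such as mRpS9, at -5.40 in RasV12 against CL8, lie apart from the rest.

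The members were also split by the number in the symbol, which does not settle the descent of each protein. By this number, 36 members are named after bacterial ribosomal proteins (up to L36 and S21) and 28 carry higher numbers. Their median differences between RasV12 and CL8 were -1.85 and -1.79, and -1.03 and -0.98 after rescaling. Lower in both scalings were 29 of 36 (80.6%) of the first and 27 of 28 (96.4%) of the second, the exception in the second being mRpL48.

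In the deposited values L2 lay between the other lines for most members. By mean level the order RasV12, L2, CL8 from low to high held there for 59 of 64 genes, and L2 was lowest in the other 5. The order held for fewer members after rescaling. L2 then lay above the CL8 mean for 13 members, and the RasV12 mean lay above L2 for 9. In the deposited values L2 lay below all CL8 arrays for 63 of 64 members. The same held for 30.0% of all probe sets and 46.2% of the genes above the controls. All RasV12 arrays lay below L2 for 57 of 64 members, beside 72.9% of all probe sets and 66.2% of the genes above the controls. The L2 value fell in the gap between the RasV12 and CL8 ranges for 56 genes, a count not made over all probe sets. It lay within the RasV12 range for mRpL43, mRpS11 and mRpS18B, within the CL8 range for mRpL33, and below all other arrays for mRpL3, mRpL30, mRpL52 and mRpS25. L2 has a single array, so its tests borrow the spread seen among the flasks of the other lines.

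Against CL8, 57 of 64 members passed as lower in L2 and 0 as higher (60 and 0 at an unadjusted p under 0.05). Of all probe sets 23.6% passed as lower and 38.3% as higher, and of the genes above the controls 36.8% passed as lower. The median was -1.07 over the members and -0.14 over the genes above the controls. After rescaling 21 of 64 were lower, where 17.4% of all probe sets were. All 21 members were lower in the deposited values too, so 32.8% of the members were lower in both scalings, against 11.7% of all probe sets and 18.2% of the genes above the controls, and the rescaled median was -0.41. For 13 members the sign turned with the rescaling, to between 0.015 and 0.45. Of the large subunit 12 of 43 (27.9%) and of the small subunit 9 of 21 (42.9%) were lower in both scalings, with medians of -1.01 and -1.17, and of -0.33 and -0.57 after rescaling. The 2 members that rescaling alone called higher in L2, mRpL28 and mRpL49 (20.2% of all probe sets were higher after rescaling), had been lower in the deposited values, so neither has a direction.

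The largest difference between L2 and CL8 was that of mRpS25, a small subunit protein without a bacterial counterpart. Its log2 levels were 11.38, 11.47, 11.28 and 11.18 in CL8, 9.0, 8.86 and 9.03 in RasV12 and 7.10 in L2. The 3 lines did not overlap, and L2 was lowest. L2 was lower than CL8 by -4.22 ± 0.14 on the log2 scale (18.7-fold, adjusted p = 9.82e-07), and by -3.70 after rescaling. mRpL50 was second at -2.53 ± 0.21 (adjusted p = 7.87e-05), and -1.88 after rescaling.

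mRpS33, a further small subunit protein without a bacterial counterpart, and mRpL3, named after a bacterial protein close to the peptidyl transferase centre, also lay outside the quartile limits in L2. mRpS33 had log2 levels of 11, 11.36, 10.76 and 10.66 in CL8, 7.89, 8.15 and 8.23 in RasV12 and 8.50 in L2, so that RasV12 and L2 were both far below CL8. L2 was lower than CL8 by -2.44 ± 0.26 (adjusted p = 0.000255) and RasV12 by -2.86 ± 0.18 (adjusted p = 4.25e-06), and the difference between RasV12 and L2 did not pass (-0.41 ± 0.26, adjusted p = 0.21). After rescaling these were -1.77, -2.02 and -0.25. mRpL3, the dimmest member of the large subunit, had log2 levels of 8.38, 7.25, 7.32 and 7.74 in CL8, 6.40, 6.45 and 6.73 in RasV12 and 5.28 in L2. Its CL8 arrays spread over more than 1 log2 unit, and L2 lay below all others. L2 was lower than CL8 by -2.39 ± 0.39 (adjusted p = 0.00198), and by -2.61 after rescaling.

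At the other end were members whose L2 level was close to that of CL8 while RasV12 was far lower. For mRpS31 the log2 levels were 8.66, 8.61 and 8.90 in RasV12, 10.62, 10.58, 10.75 and 10.89 in CL8 and 10.51 in L2. For mRpS28 they were 8.63, 8.26 and 7.94 in RasV12, 10.39, 10.64, 10.40 and 10.45 in CL8 and 10.17 in L2. Both L2 values lay under the CL8 range in the deposited values and far above the RasV12 arrays. The differences of L2 from CL8 were -0.20 ± 0.16 for mRpS31 (adjusted p = 0.306) and -0.30 ± 0.23 for mRpS28 (adjusted p = 0.279), and those of RasV12 from L2 were -1.79 ± 0.17 (adjusted p = 0.000153) and -1.90 ± 0.24 (adjusted p = 0.000597). After rescaling the L2 differences from CL8 turned to 0.45 and 0.38, neither passing (adjusted p = 0.0912 and 0.2), so that no direction holds for L2 against CL8, while RasV12 against L2 stayed at -1.62 and -1.74. For mRpL33, named after a small protein of the bacterial large subunit, L2 at 11.64 fell within the CL8 range, 11.60 to 12.21, and its difference from CL8 was -0.19 ± 0.21 (adjusted p = 0.449), and 0.36 after rescaling (adjusted p = 0.214). The other members that did not pass in L2 against CL8 were mRpL22, mRpL35, mRpL44 and mRpS18C.

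**Figure D3:**
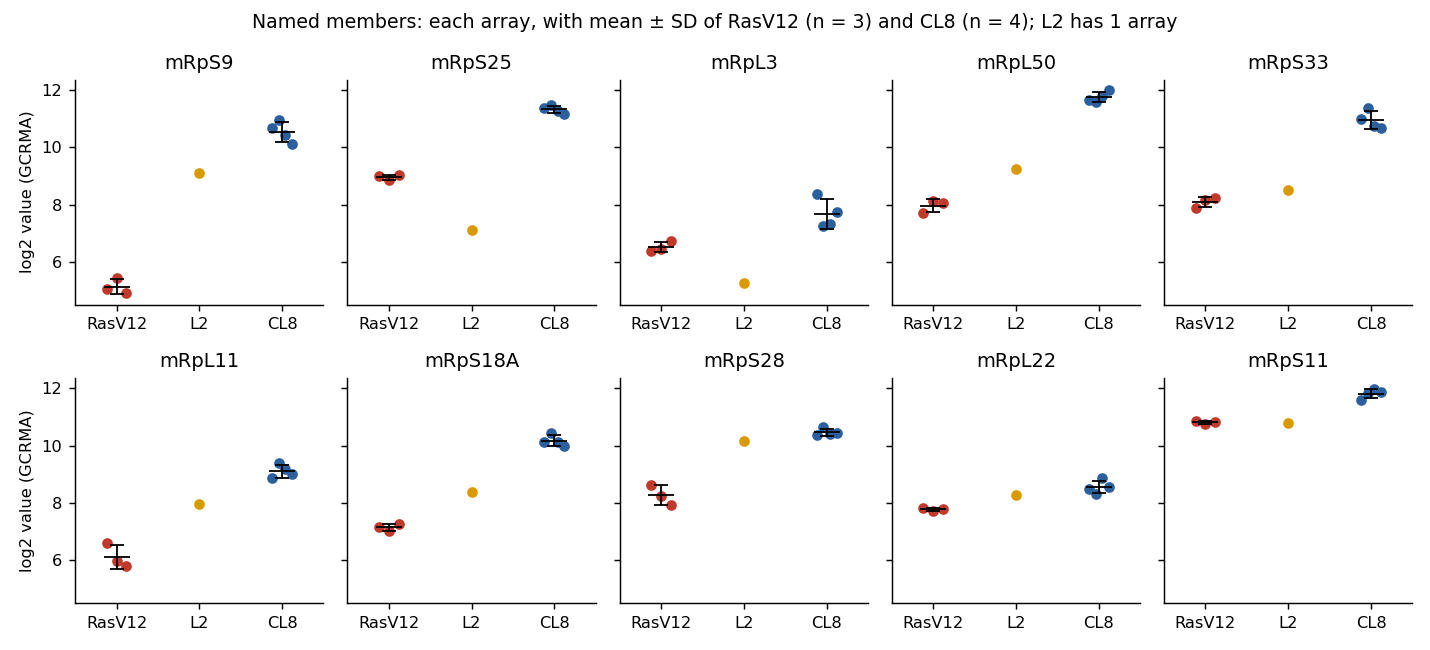
Log2 expression of 10 members (vertical axis) on the RasV12, L2 and CL8 arrays, 1 point per array, with the mean and SD of RasV12 (n = 3) and CL8 (n = 4) as bars. mRpS9 reads 4.92 to 5.43 in RasV12 against 10.13 to 10.95 in CL8, mRpS25 and mRpL3 are lowest in L2 at 7.10 and 5.28, and mRpL22 differs least between RasV12 and CL8.

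Set directly against L2, RasV12 was lower for most members. In the deposited values 47 of 64 passed as lower and 2 as higher, where 44.1% of all probe sets and 45.9% of the genes above the controls passed as lower and 9.57% of all probe sets as higher. Lower in both scalings were 37 of 64 (57.8%), against 25.9% of all probe sets and 30.6% of the genes above the controls. By subunit these were 26 of 43 and 11 of 21, and the medians were -0.78 and -0.74, and -0.62 and -0.55 after rescaling. RasV12 against L2 shares its RasV12 arrays with the first comparison and its L2 array with the second, so that the counts of the 3 comparisons do not stand alone.

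mRpS9 had the largest of these differences, -3.95 ± 0.31 (15.5-fold lower in RasV12, adjusted p = 5.99e-05), with -4.05 after rescaling. mRpL15, named after a bacterial large subunit protein, and mRpL11 followed among the large subunit, at -1.90 ± 0.19 (adjusted p = 0.000208) and -1.85 ± 0.31 (adjusted p = 0.00216), and both at -1.75 after rescaling. mRpL15 had log2 levels of 7.85, 7.65 and 8.18 in RasV12 and 9.79 in L2. The members higher in RasV12 in both scalings (9.53% of all probe sets were) were mRpS25, by 1.86 ± 0.14 (3.63-fold, adjusted p = 5.48e-05), and mRpL3, by 1.24 ± 0.40 (adjusted p = 0.0325), or by 2.15 and 2.13 after rescaling. The call of mRpL3 was lost without RasV12 array 2 (adjusted p = 0.0569) or array 3 (adjusted p = 0.0766). mRpL30 and mRpL52, whose RasV12 arrays also lay above the L2 array, did not pass in the deposited values (0.08, adjusted p = 0.776, and 0.13, adjusted p = 0.365), and of them mRpL52 passed after rescaling (0.29, adjusted p = 0.0269).

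Only mRpL11 and mRpL12 have a further probe set. mRpL12 is named after the bacterial stalk protein that recruits elongation factors. The probe set used for it read 10.01, 9.99 and 10.11 in RasV12, 11.80, 11.73, 11.57 and 11.43 in CL8 and 10.22 in L2, a difference between RasV12 and CL8 of -1.60 ± 0.11 (adjusted p = 6.05e-06), and of -0.81 after rescaling. Its other probe set read 2.75 to 3.21, below the highest background control on every array, so that its difference of 0.26 (adjusted p = 0.0316) gives no direction for the gene. The further probe set of mRpL11 read 1.75 to 2.07, likewise within the controls. With the mean of both probe sets in place of the brighter, the difference between RasV12 and CL8 was -1.45 for mRpL11 and -0.67 for mRpL12.

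The replicates of a line stayed close together. The SD of a member over the arrays of a line had a median of 0.12 in RasV12 (n = 3) and 0.17 in CL8 (n = 4). The CL8 arrays fell into pairs, since arrays 1 and 2 lay below 3 and 4 without overlap for 51.7% of all probe sets and above them for 14.2%. Of the members 15 of 64 lay below and 14 of 64 above in this way, and without either pair 64 of 64 members remained lower in RasV12.

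Other genes of mitochondrial gene expression were read from lists chosen by function, and their counts stand beside the 54.5% of the genes above the controls that were lower in RasV12 than in CL8 and the 34.9% that were lower in both scalings. Ribosomal proteins that carry other symbols were also lower. tko, the fly's mitochondrial S12 protein, had log2 levels of 8.0, 8.15 and 7.92 in RasV12, 10.33, 10.78, 10.54 and 10.26 in CL8 and 9.27 in L2, and bonsai, its S15 protein, had 9.03, 9.16 and 9.10 in RasV12, 11.06, 11.08, 10.97 and 11.13 in CL8 and 9.57 in L2. Both were lower in RasV12 than in CL8 in both scalings, by -2.45 and -1.97.

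Among the genes that serve the ribosome the counts varied by list. Of 8 translation factors 5 were lower in RasV12 than in CL8 and 4 were so in both scalings, with a median of -0.62 (-0.24 after rescaling). As shares, 62.5% and 50%, these lie near and above those of the genes above the controls. The list's largest differences were those of mEFTu1, the elongation factor that delivers transfer RNAs, at -2.32, and mEFG1, the factor that moves the ribosome along, at -1.53. The second EF-Tu gene, mEFTu2, did not pass in the deposited values (-0.08, adjusted p = 0.552) and was higher after rescaling (0.74, adjusted p = 0.000966). Of 18 aminoacyl-tRNA synthetases, which charge the transfer RNAs, 13 were lower and 7 in both scalings, and 3 were higher after rescaling. The 7 of 18 (38.9%) are near the share of all genes above the controls, and 4 of the 18 lack the suffix that marks a mitochondrial enzyme. TyrRS-m and ArgRS-m differed by -2.36 and -1.41, and their L2 values, 7.49 and 7.83, lay above all CL8 arrays. Of 10 genes for mitochondrial DNA and RNA 10 were lower and 6 in both scalings, with a median of -1.25 (-0.67 after rescaling), among them TFAM, which packages mitochondrial DNA, at -2.56, and mldr, at -2.09.

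Of 29 nuclear genes of the respiratory chain and ATP synthase, whose products join those made on the mitochondrial ribosome, 28 were lower, 23 of them in both scalings, and SdhB was higher in both. The median was -1.36 (-0.65 after rescaling). The most different were ox, of the cytochrome bc1 complex, at -2.42, and SdhC, of succinate dehydrogenase, at -2.19. For ox the L2 level of 14.29 was close to the CL8 arrays at 14.30 to 14.42. Of 11 import and chaperone genes 10 were lower but 3 (27.3%) in both scalings, below the share of all genes above the controls. After rescaling 2 were higher, but of these Tim13 lay within the controls in every line and gives no direction. The largest differences were those of Roe1, a GrpE-type chaperone cofactor, at -2.22, and Tom40, the pore of the outer membrane, at -1.34. Of 5 regulators, the nuclear receptor ERR was lower in both scalings at -0.96, while the Ets factor Ets97D was lower in the deposited values only, at -0.56, and crc was higher in both scalings.

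The genes of the cytoplasmic ribosome, which translates the members' own messages, were read in the same way. Only genes measured by a probe set with a single gene were counted, so this is not the whole cytoplasmic ribosome. Of 33 such genes with an RpL or RpS symbol 25 were lower in RasV12 than in CL8 in the deposited values. Lower in both scalings were 7 (21.2%), against 25.6% of all probe sets and 34.9% of the genes above the controls. After rescaling 10 (30.3%) were higher, where 35.5% of all probe sets and 31.0% of the genes above the controls were. Of these 10 genes RpS10a lay within the controls in every line and gives no direction. The median of the 33 genes was -0.51, and 0.05 after rescaling, beside -1.83 and -1.0 for the mitochondrial members. These probe sets lie in another range of the array: 24 of 33 had a CL8 mean over 14, near the highest values of any array (15.69 to 16.41), where 0 of 64 members did, and 2 of 33 lay within the controls in every line. The part of saturation in their smaller differences was not tested. RpS29 was lower by -1.40 and RpL28 was higher in both scalings. RpS5b, with the largest positive difference, did not pass in the deposited values (1.21, adjusted p = 0.0727) but passed after rescaling (2.03, adjusted p = 0.0171). Its log2 levels were 10.88, 10.91 and 10.87 in RasV12 and 10.46, 10.64, 8.77 and 8.82 in CL8. Most of its difference thus came from CL8 arrays 3 and 4.

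**Figure D4:**
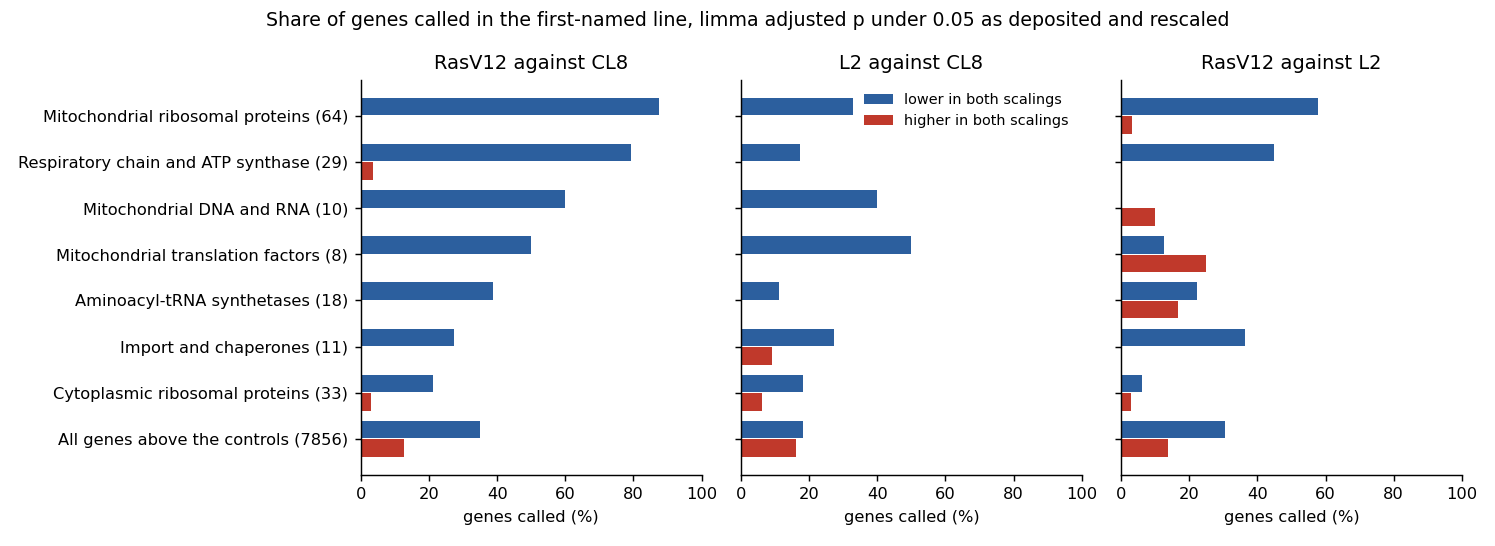
Share of each gene list, in percent, that was lower (blue) or higher (red) in both scalings in the first-named line of each of the 3 comparisons, with the number of genes in brackets and all genes above the controls at the bottom. In RasV12 against CL8 the share lower was 87.5% of the 64 mitochondrial ribosomal protein genes, 79.3% of the 29 respiratory chain genes, 21.2% of the 33 cytoplasmic ribosomal protein genes and 34.9% of all genes above the controls.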

How the data were processed

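The deposited values are log2 expression values that the authors computed with GCRMA in Bioconductor, per the series' design text. The sources used here do not say whether 1 GCRMA run held all arrays. From these values 44 control probe sets were set aside and the other 13966 entered limma 3.58.1 (R 4.3.3, lmFit and eBayes), in 1 fit of all 8 arrays, with Benjamini-Hochberg adjustment and a threshold of 0.05. The fit was repeated after quantile normalization. The number of arrays limits the precision. Signal over background was read from 23 control probe sets for transcripts not of the fly, at most 2.98 to 3.47 in RasV12 and CL8 and 4.04 in L2. Gene symbols came from the platform's annotation: 12443 probe sets had 1 gene, 327 several and 1196 none.

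The members and lists were chosen with earlier results of these data known. Named are, in each comparison, the 4 members with the lowest and the 4 with the highest difference, those over 1.5 interquartile ranges outside the quartiles, those called against the majority or in opposite directions by their probe sets, the 2 nearest each subunit's median, and the brightest and dimmest of each subunit; from each list up to 2 genes with the largest absolute difference. Members singled out beyond this rule (mRpL13, mRpL28, mRpL43, mRpL44, mRpL49, mRpS26) and the list genes mEFTu2, SdhB, crc, RpL28, RpS10a and Tim13 were picked after their values were seen. The scripts were tested on simulated data. Same-numbered RasV12 and CL8 arrays did not deviate together (correlations -0.24, -0.10 and -0.09). This gave no sign that array numbers pair samples, but so few arrays cannot exclude it. Promoter sequences were not used here.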

Additional observations from a re-analysis of the deposited data

How the results depend on the processing

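After quantile normalization the median differences of large and small subunit were -0.96 and -1.09 (RasV12 against CL8), -0.33 and -0.57 (L2 against CL8), and -0.62 and -0.55 (RasV12 against L2), and 21 members were lower and 2 higher in L2 than in CL8. After median centring these medians were -0.93 and -1.09, -0.43 and -0.59, and -0.52 and -0.48, and 36 members were lower in L2 than in CL8 and 30 lower in RasV12 than in L2. With quantile normalization the sign turned for 1 member in RasV12 against CL8 (mRpL22, 0.041, and 0.061 centred), for 13 in L2 against CL8, among them mRpL48 (0.23, and 0.12 centred), and for 4 in RasV12 against L2 (mRpL13, mRpL43, mRpS18B and mRpS26); the cause was not tested. Each RasV12 and CL8 array was left out in turn, but not the L2 array. In RasV12 against CL8 this gave 64 to 64 lower members and 0 to 0 higher. The medians were -1.79 to -1.72 (large) and -1.97 to -1.84 (small). L2 against CL8 gave 54 to 58 lower and 0 to 0 higher, with medians of -1.04 to -0.97 and -1.22 to -1.16. RasV12 against L2 gave 38 to 48 lower and 1 to 2 higher, with medians of -0.78 to -0.72 and -0.76 to -0.69. The replicate block, in a fit of RasV12 and CL8 alone, gave 64 lower members and medians of -1.77 and -1.92, and changed no call of the 24 named members. Without dim probe sets, with an intensity trend and robust eBayes, and with the mean of a gene's probe sets, no count of calls moved by over 1.5 times, but that mean, which includes probe sets within the controls, took mRpL11 and mRpL12 to -1.45 and -0.67 in RasV12 against CL8. With 1 array of L2, its own spread is not measured.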

Other observations

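The genes next to the members on the chromosomes were also read, in the gene order that RefSeq gives for assembly Release 6 plus ISO1 MT. No 2 members are neighbours there, and 113 neighbouring genes were measured. In RasV12 against CL8, 75 of them (66.4%) were lower in the deposited values and 55 (48.7%) in both scalings, where 41.8% and 27.6% of all 10844 genes were. Of all genes 10.8% were higher in both scalings, beside 10 (8.85%) of the neighbours. Their median difference was -0.73, and -0.26 after rescaling. In L2 against CL8, 21 of 113 (18.6%) were lower in both scalings, beside 13.2% of all genes. In RasV12 against L2 they were 32 of 113 (28.3%), beside 26.5%. Of the genes above the controls, 34.9% were lower in both scalings in RasV12 against CL8. The same share was 18.2% in L2 against CL8 and 30.6% in RasV12 against L2, near those of the neighbours.

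Among the translation factors, mEFTs, the exchange factor of mitochondrial EF-Tu, was picked after its values were seen. Its log2 levels were 8.89, 8.85 and 9.07 in RasV12, 9.80, 9.82, 9.56 and 9.48 in CL8 and 7.01 in L2. L2 was lower than CL8 by -2.65 on the log2 scale, and by -2.14 after rescaling.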
